A study of Rattus norvegicus with 9 samples.

Results

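Arrays of the rat Wolffian duct with its attached mesodermal cells were set against arrays of the Wolffian duct dissected free of them. The arrays were chosen by their tissue label, 3 of each kind, and make up 6 of the 9 arrays of the study. Every pool was of Sprague-Dawley rat tissue, taken at embryonic day 13, and no treatment or genotype separated the groups. Each array of bare duct held RNA of a pool of about 100 ducts that had been isolated without enzyme, and each array of duct with mesoderm a pool of about 50. The remaining 3 arrays held pools of about 100 ureteric buds freed with light trypsin, and they entered the fit and a few levels below. The arrays of one kind are biological replicates by their labels, each a pool over many embryos. A p-value here weighs a difference against the variation among arrays of one kind. That variation mixes differences from pool to pool with the differences in array quality given below. Of 14217 genes with a probe set of 1 gene symbol, 10800 were bright enough to be tested.

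The Wolffian, or mesonephric, duct is an epithelial tube that runs through the intermediate mesoderm and later gives rise to the male reproductive ducts and, by budding, to the ureter and collecting ducts of the kidney. Around it lie loose mesenchyme, mesonephric tubules, the coelomic lining, nerves and the vessels of the mesonephros. Mesenchyme supplies growth factors such as GDNF, FGFs and BMP4 to the duct, and duct cells read them through receptors such as RET and FGFR2.

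The array measures brightness in arbitrary intensity units, called signal here. Differences are given as log2(signal + 46), duct with mesoderm minus bare duct, with the standard error from limma, so a value of 1 is a doubling of bright genes and less than the true change of dim ones. Signals of different genes are not comparable. A gene was called, and is said to have risen or fallen, at a Benjamini-Hochberg adjusted p under 0.05 over all tested probe sets. All groups are of 3 arrays.

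Of the 10800 genes tested, 699 (6.47%) were higher in the duct with mesoderm and 890 (8.24%) were lower. Among the genes that rose, 347 did so by at least 1 on the log2 scale, 87 by at least 2 and 16 by at least 3. Among those that fell, 504 did so by at least 1, 39 by at least 2 and none by 3. The largest rise was 4.35 (Plvap) and the largest fall was -2.76 (Tjp3), while the median of all genes tested was -0.01. All 3 arrays of duct with mesoderm lay above all 3 of bare duct in 15.2% of genes and below them in 17.2%. The counts of list members that follow stand beside these shares of all genes.

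**Figure D1:**
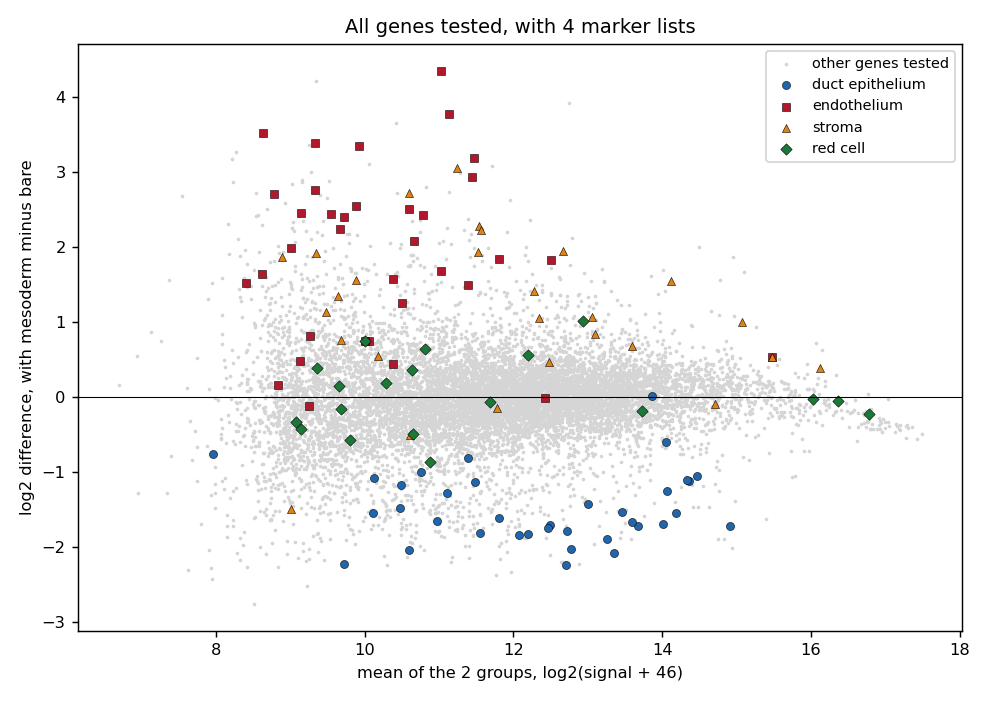
Each point is 1 tested gene, with the mean of both groups on the x axis, as log2(signal + 46), and the log2 difference, duct with mesoderm minus bare duct, on the y axis. Duct epithelium markers lie below 0 with 1 exception, endothelial markers reach 4.35 and stromal markers 3.06, and red cell markers lie between -0.87 and 1.02 with a median of -0.05.

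The 6 arrays differed in measures of array quality. Over the tested probe sets, pairs of bare duct arrays correlated at Pearson's r = 0.932 to 0.952, pairs of duct with mesoderm at 0.939 to 0.955, and pairs across the groups at 0.871 to 0.919. Among these 6 arrays, replicate 3 of the duct with mesoderm stood apart in the ratio of the bioC to the bioB spike-in control. That ratio was 3.02 there and 0.910 to 1.07 on the other 5 arrays. The 3 ureteric bud arrays had 2.97 to 3.07, so bud and bare duct levels set side by side below differ in it too. With high or low spike-in ratio as a term in the fit, 484 genes were higher and 719 lower. Without replicate 3 of the duct with mesoderm 468 genes (4.33%) were higher and 720 (6.67%) lower, and counts without this array are given below for some of the lists. The ratio of the 3' to the 5' beta-actin probe set, which rises as RNA shortens, was 2.19 to 4.87 in bare ducts and 1.47 to 1.92 in ducts with mesoderm, with no overlap. With that ratio as a covariate, which takes up part of the group difference itself, 264 genes were higher and 293 lower. Not all of the calls it ends are named below. Leaving out replicate 2 of the duct with mesoderm instead gave 470 higher and 766 lower. In RNA of whole tissue, fewer cells of a type and less RNA per cell cannot be told apart, and the arrays were scaled to a common mean, so each change is measured against the rest of its array.

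Genes of the duct epithelium itself were lower where mesoderm was attached. Of 36 tested members of a list of 45 such genes, 32 fell and none rose, with a median of -1.58, against 8.24% of all genes lower. A count of 32 was also found without replicate 3 of the duct with mesoderm, and 24 fell with the beta-actin covariate. Cdh1, which encodes E-cadherin, the adhesion molecule of epithelia, had signals of 31968, 25714 and 30741 in bare ducts and 7067, 10352 and 10154 in ducts with mesoderm. The groups did not overlap, and the difference was -1.69 ± 0.16 (SE, adjusted p = 7.02e-05). Epcam, another epithelial adhesion gene, fell from 52412, 56365 and 55462 to 11200, 22771 and 17906, by 1.72 ± 0.20 on the log2 scale.

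Transcription factors that specify the duct were among the genes that fell. Pax2, needed for the duct to form, had 7164, 8126 and 11140 in bare ducts and 2398, 2585 and 2284 in ducts with mesoderm. Its difference was -1.82 ± 0.21 (adjusted p = 0.000209). Pax8, its close relative, differed by -1.75 ± 0.16, and its second probe set was not called. Lhx1, the LIM homeobox gene that acts with them, differed by -1.13 ± 0.22, and Emx2, needed for the later duct, by -1.10 ± 0.20. Gata3, which lies downstream of Pax genes in the duct, had 47897, 28117 and 22075 against 9798, 18049 and 18875, a difference of -1.05 ± 0.30 (adjusted p = 0.0416). A second Gata3 probe set was not called, at -0.60 ± 0.30 (adjusted p = 0.218). The Gata3 call was lost without replicate 1 or 2 of the bare duct (adjusted p = 0.143 and 0.0895), without replicate 1 or 2 of the duct with mesoderm (adjusted p = 0.119 and 0.0564), and with the beta-actin covariate (adjusted p = 0.96). That covariate also ended the calls of Lhx1 (adjusted p = 0.0543) and Emx2 (adjusted p = 0.174).

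Further genes that fell encode junction proteins, keratins, a splicing factor, an enzyme and a homeobox factor. The kidney cadherin Cdh16 fell from 12079, 16677 and 13911 to 2143, 4473 and 2679, by 2.24 ± 0.24 on the log2 scale. Desmoplakin (Dsp) and periplakin (Ppl), which link junctions to keratin, differed by -2.08 ± 0.21 and -2.15 ± 0.19. Keratins of simple epithelia also fell, Krt8 by 1.66 ± 0.16 and Krt18 by 1.54 ± 0.17, as did Esrp1, an epithelial splicing factor, by 1.72 ± 0.15. Tjp3, a tight junction scaffold, had 1058, 1061 and 605 in bare ducts and 95.8, 113 and 67.4 in ducts with mesoderm, a difference of -2.76 ± 0.36. L1cam, a cell adhesion molecule of neurons and of this duct, fell from 8731, 6748 and 7713 to 1299, 2161 and 1088, by 2.37 ± 0.24. Gad1, the enzyme that makes GABA, differed by -2.24 ± 0.30, and the homeobox gene En2 by -2.16 ± 0.37. The groups overlapped in none of these genes.

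Of the 36 duct genes, 4 were not called, and they were named after their values were seen. Krt19, a keratin of simple epithelia and mesothelium, had 14807, 14889 and 14251 in bare ducts and 12042, 16738 and 16012 in ducts with mesoderm. The groups overlapped, and the difference was 0.01 ± 0.16 with a 95% interval of -0.33 to 0.36, which lies apart from the differences of Krt8 and Krt18. The mean of Krt19 in the ureteric bud was 524. Cldn7 differed by -0.82 ± 0.47, Frem2 by -1.08 ± 0.34 and Calb1 by -0.75 ± 0.65, none past the threshold.

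Promoters of these genes are shown because the list moved together. RefSeq's GRCr8 table gave a promoter, 250 bases before to 50 after the start, for 19 of the 32 duct genes that fell. The E-box CAGGTG, a sequence that repressors of the ZEB and SNAI families bind (searched on both strands), was in 13 of the 19 promoters (68.4%). It was in 18.8% of all 33465 promoters of the table and in 17.4% of 10069 promoters of tested genes. The tight junction genes Ocln and Cldn6 serve as examples, with the E-box in capitals. Ocln fell from 10419, 11195 and 9427 to 3094, 3316 and 2977, by 1.71 ± 0.13 on the log2 scale, though its second probe set was not called, and Cldn6 from 16371, 20005 and 20192 to 4717, 4840 and 5573, by 1.89 ± 0.15. A match describes the letters and is neither a bound site nor a cause.
Ocln promoter, chr2:33441149-33441448, minus strand: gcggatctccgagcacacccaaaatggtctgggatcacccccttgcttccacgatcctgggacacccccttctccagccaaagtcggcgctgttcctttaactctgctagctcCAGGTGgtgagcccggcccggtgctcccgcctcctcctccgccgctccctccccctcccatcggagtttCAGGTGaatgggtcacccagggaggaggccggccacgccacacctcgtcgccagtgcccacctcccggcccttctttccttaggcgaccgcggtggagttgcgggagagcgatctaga
Cldn6 promoter, chr10:13215558-13215857, plus strand: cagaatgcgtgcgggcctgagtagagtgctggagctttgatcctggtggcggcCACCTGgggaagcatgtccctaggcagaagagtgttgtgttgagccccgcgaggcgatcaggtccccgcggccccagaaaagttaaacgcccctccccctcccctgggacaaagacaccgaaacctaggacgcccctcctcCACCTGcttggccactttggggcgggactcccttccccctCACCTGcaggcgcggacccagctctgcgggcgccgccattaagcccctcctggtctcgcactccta

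**Figure D2:**
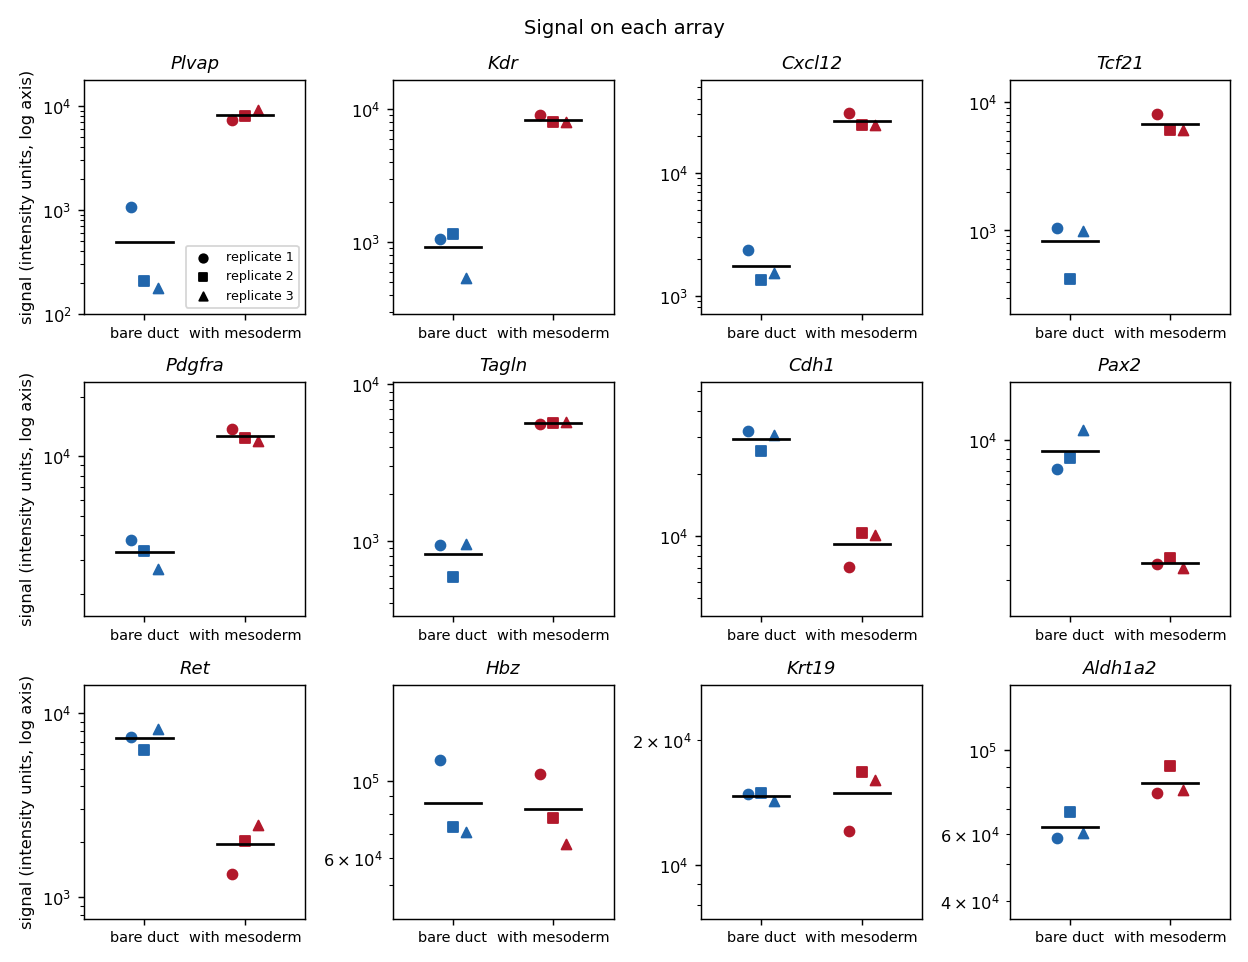
Signal on each array, in intensity units on a log axis, for 12 genes, with bare duct in blue, duct with mesoderm in red, 1 symbol per replicate and a bar at the group mean. Plvap, Kdr, Cxcl12, Tcf21, Pdgfra and Tagln lie higher with mesoderm, Cdh1, Pax2 and Ret lie lower, the groups of Hbz and Krt19 overlap, and Aldh1a2 lies above but was not called.

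Endothelial genes had the highest median of the 26 lists. Of 35 tested members of a list of 49, 23 rose and none fell, with a median of 1.99, against 6.47% of all genes higher. Without replicate 3 of the duct with mesoderm 21 rose, and with the beta-actin covariate 16. The summed signal of the 35 genes was 55172 to 72902 in bare ducts and 151935 to 164297 in ducts with mesoderm. Kdr, the main VEGF receptor of endothelium, had 1054, 1164 and 536 in bare ducts and 8981, 7968 and 8026 in ducts with mesoderm. Its groups lay far apart, with a difference of 3.19 ± 0.28 (adjusted p = 5.35e-05). Cldn5, the claudin of endothelial tight junctions, went from 745, 1408 and 781 to 6586, 7688 and 8275, a rise of 2.94 ± 0.23. Plvap, which forms the diaphragms of endothelial pores, varied among bare ducts, with 1076 in replicate 1 and 207 and 178 in the others, and had 7350, 7948 and 9149 with mesoderm.

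The list spanned adhesion, receptor and transcription factor genes. Receptors that rose included Aplnr, the apelin receptor, by 3.35 ± 0.34, Tek, the angiopoietin receptor, by 2.50 ± 0.33, and Lyve1, a hyaluronan receptor of lymphatic and early endothelium, by 2.43 ± 0.32. The ETS factor Fli1 rose from 2020, 1403 and 2146 to 7621, 6369 and 6076, by 1.84 ± 0.23, with 2 further probe sets also higher and 1 not called. Its relative Erg rose by 2.46 ± 0.51 and the SOX factors Sox7 and Sox18 by 3.39 ± 0.51 and 2.55 ± 0.58. The calls of Erg, Sox7 and Sox18 were lost with the beta-actin covariate (adjusted p = 0.122, 0.0663 and 0.299), as was that of Mmrn1, an endothelial and platelet protein that rose by 3.01 ± 0.53 (adjusted p = 0.0865). Pecam1, the platelet endothelial adhesion molecule, had 419, 552 and 96.4 against 1875, 1762 and 1173, a difference of 2.25 ± 0.59. Its call was lost without replicate 3 of the bare duct (adjusted p = 0.0565) and without replicate 1 or 2 of the duct with mesoderm (adjusted p = 0.0751 and 0.0884). Members that were not called included the notch ligand Dll4, at -0.12 ± 0.36, and the VEGF receptor Flt1, at 1.64 ± 0.62.

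Promoters were found in the RefSeq table for 12 of the 23 endothelial genes that rose. The ETS core AGGAAG, bound by the family of Fli1 and Erg and searched on both strands, was in 8 of them (66.7%), against 34.5% of all promoters and 33.1% of those of tested genes. It was in 4 of the 19 duct promoters (21.1%), and the E-box CAGGTG was in none of the 12 endothelial promoters. The promoters of Emcn, a sialomucin of endothelial surfaces, of Plvap and of Lyve1 are given with the ETS core in capitals. Emcn had 542, 523 and 622 in bare ducts and 8514, 8220 and 8039 with mesoderm, a rise of 3.77 ± 0.35 (adjusted p = 7.02e-05).
Emcn promoter, chr2:228564289-228564588, plus strand: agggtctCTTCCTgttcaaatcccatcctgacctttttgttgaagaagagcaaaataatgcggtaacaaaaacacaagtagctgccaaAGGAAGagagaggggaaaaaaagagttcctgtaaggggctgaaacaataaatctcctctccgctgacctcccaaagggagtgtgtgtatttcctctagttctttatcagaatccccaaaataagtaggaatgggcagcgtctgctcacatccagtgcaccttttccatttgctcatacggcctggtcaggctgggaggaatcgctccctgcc
Plvap promoter, chr16:18231230-18231529, minus strand: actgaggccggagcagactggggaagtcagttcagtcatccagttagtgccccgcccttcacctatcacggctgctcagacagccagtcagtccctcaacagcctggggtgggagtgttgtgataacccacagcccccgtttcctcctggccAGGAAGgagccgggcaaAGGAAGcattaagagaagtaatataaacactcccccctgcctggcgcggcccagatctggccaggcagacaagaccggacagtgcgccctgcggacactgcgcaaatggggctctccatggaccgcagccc
Lyve1 promoter, chr1:174410928-174411227, minus strand: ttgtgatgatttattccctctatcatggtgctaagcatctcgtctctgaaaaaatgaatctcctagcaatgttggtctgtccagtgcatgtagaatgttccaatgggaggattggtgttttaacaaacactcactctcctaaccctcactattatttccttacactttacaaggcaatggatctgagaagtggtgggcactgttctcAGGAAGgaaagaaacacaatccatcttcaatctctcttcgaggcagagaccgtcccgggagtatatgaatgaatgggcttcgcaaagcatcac

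Signals that act between vessels and surrounding tissue were called in both directions. Of 36 tested genes of this list, 8 rose and 6 fell, with a median of 0.35, against 6.47% higher and 8.24% lower of all genes. Cxcl12, the chemokine that attracts cells bearing CXCR4, had 2365, 1327 and 1516 in bare ducts and 30512, 24544 and 24218 with mesoderm. The groups lay far apart, the rise was 3.93 ± 0.20 (adjusted p = 3.23e-06), and 2 further probe sets of the gene also rose. Ackr3, the receptor that binds and removes CXCL12, went the other way, from 28223, 25412 and 20240 to 7305, 9722 and 10778, by -1.41 ± 0.17. Cxcr4 itself differed by -0.63 ± 0.24 with overlapping groups and was not called. It was called in 2 of 21 alternatives, among them without replicate 3 of the bare duct (adjusted p = 0.0137).

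Other genes of this list lay on both sides. S1pr1, the sphingosine phosphate receptor that stabilises vessels, rose by 2.72 ± 0.28, and Hey1, a target of notch in arteries, by 2.05 ± 0.33. Angpt2, a ligand of Tek, fell from 2633, 4215 and 3385 to 1071, 1807 and 968, by 1.41 ± 0.24. Vegfa, the ligand of Kdr, had 8667, 6655 and 7209 against 8911, 7156 and 7439, and its difference was 0.06 ± 0.15 with an interval of -0.27 to 0.39. Slit2, a guidance cue that limits where ureteric buds form, fell by 1.39 ± 0.17, with a second probe set not called. Its relative Slit3 was higher by 1.20 ± 0.30, a call lost without replicate 1 of either group (adjusted p = 0.0764 for bare duct and 0.0751 for duct with mesoderm) and with the beta-actin covariate (adjusted p = 0.524).

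Further genes among the largest rises were on no list of cell types. Oprk1, the kappa opioid receptor, went from 1233, 844 and 1249 to 8104, 10748 and 10154, a rise of 3.08 ± 0.25 (adjusted p = 4.43e-05) seen in 2 further probe sets. The subunits of soluble guanylate cyclase, the receptor for nitric oxide, both rose. Gucy1b1 differed by 3.11 ± 0.38 and Gucy1a1, which was named after its values were seen, by 2.63 ± 0.20. Tubb6, a beta tubulin, rose by 2.99 ± 0.28 and Nkain4, a partner of the sodium pump, by 2.90 ± 0.47. Hlx, a homeobox gene of visceral mesenchyme, rose from 71.2, 32.5 and 58.1 to 784, 941 and 1000, by 3.27 ± 0.57, and lost its call with the beta-actin covariate (adjusted p = 0.0784).

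Genes of stroma and mesenchyme were higher with the mesoderm attached. Of 27 tested stromal genes, 18 rose and none fell, with a median of 1.07, against 6.47% of all genes higher. The count was 13 without replicate 3 of the duct with mesoderm and 11 with the beta-actin covariate. Tcf21, a transcription factor of kidney and gonad mesenchyme, had 1049, 416 and 997 in bare ducts and 8050, 6115 and 6097 with mesoderm, a difference of 3.06 ± 0.29 (adjusted p = 7.41e-05). Pdgfra, the PDGF receptor of mesenchymal cells, rose from 3789, 3328 and 2690 to 13686, 12398 and 11933, by 1.95 ± 0.18. For both genes the groups were well separated. Its ligand Pdgfa fell by 0.82 ± 0.15, a call lost with the beta-actin covariate (adjusted p = 0.0881).

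Other regulators of mesenchyme rose with them. Hic1, a repressor found in mesenchymal progenitors, rose by 2.23 ± 0.23 and the TALE homeobox gene Meis2 by 1.54 ± 0.19. Meis1 had 24343, 26497 and 22083 in bare ducts and 51059, 48266 and 46527 with mesoderm, a rise of 1.0 ± 0.18. The bare duct arrays were thus bright for it, while its mean in the ureteric bud was 2792. Zeb1 and Zeb2, repressors of E-cadherin, rose by 1.06 ± 0.17 and 2.73 ± 0.44, and Twist1, another regulator of mesenchymal state, by 1.41 ± 0.21. For Zeb2, 2 of 3 further probe sets rose. The orphan receptor Nr2f1 rose by 2.28 ± 0.33, while Nr2f2, at 0.53 ± 0.19, was not called.

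Genes of fibrillar matrix were called in 1 direction only. Of 34 tested, 21 rose and none fell, with a median of 0.93, against 6.47% of all genes higher. The count was 18 without replicate 3 of the duct with mesoderm and 12 with the beta-actin covariate. Col1a1, the main chain of type I collagen, went from 8246, 6673 and 10370 to 26810, 27996 and 22267, a rise of 1.62 ± 0.19. Col5a1, which starts collagen fibrils, rose from 5069, 4701 and 4920 to 15512, 13937 and 13926, by 1.55 ± 0.13 (adjusted p = 4.43e-05), and Vim, the intermediate filament of mesenchyme, by 1.86 ± 0.18. Members outside the call were Col3a1, with 65381, 48107 and 62628 against 91802, 101033 and 78528 (0.63 ± 0.21, adjusted p = 0.0663), and the proteoglycan gene Dcn, whose groups overlapped at 0.29 ± 0.21. Both were bright in the bare ducts, and their means in the ureteric bud were 2252 and 350.

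**Figure D3:**
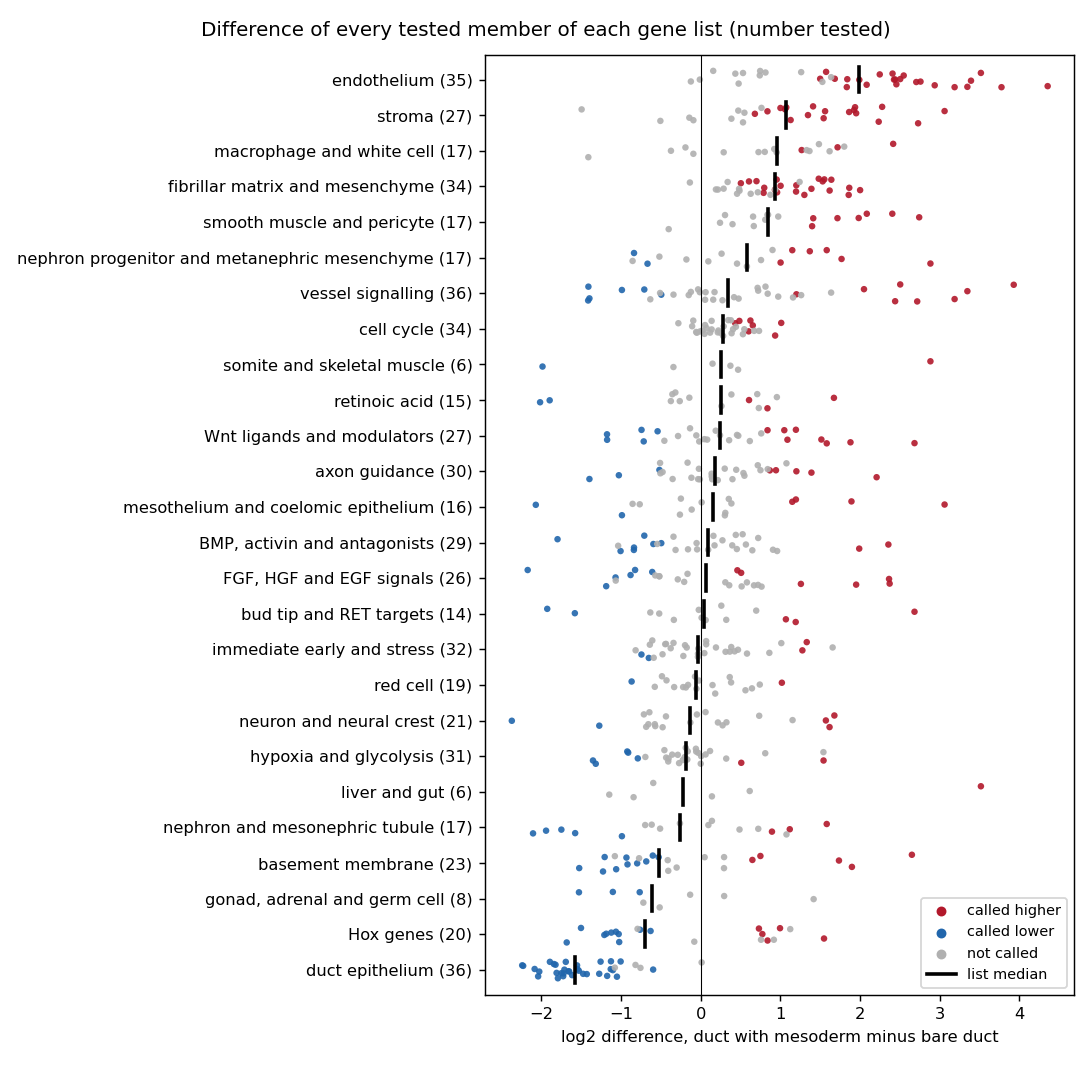
Every tested member of the 26 gene lists as a point at its log2 difference, duct with mesoderm minus bare duct, with lists ordered by their median (black bar) and the number tested in brackets. Endothelium (median 1.99) and stroma (1.07) stand at the top and duct epithelium (-1.58) at the bottom, and lists such as vessel signalling hold genes called in both directions.

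Of 17 tested genes of smooth muscle and pericytes, 7 rose, none fell and the other 10 were not called, with a median of 0.85, against 6.47% of all genes higher. The count of 7 was the same without replicate 3 of the duct with mesoderm and with the beta-actin covariate. Tagln, an actin-binding protein of smooth muscle, had 938, 591 and 958 in bare ducts and 5625, 5679 and 5761 with mesoderm, a difference of 2.74 ± 0.36. Tpm2, a tropomyosin, rose by 2.40 ± 0.29, desmin (Des) by 2.08 ± 0.22 and the myosin kinase Mylk by 1.72 ± 0.20. Pericyte genes that rose were Rgs5, by 1.41 ± 0.21, and Mcam, by 1.98 ± 0.33, with a second Mcam probe set not called. Acta2, smooth muscle actin, had 2501, 1694 and 2874 against 4334, 4003 and 2876, with replicate 3 of each group nearly equal, and was not called at 0.67 ± 0.24. Pdgfrb, the receptor of pericytes, stood at 0.97 ± 0.33 (adjusted p = 0.0727).

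Genes of the coelomic lining, or mesothelium, were mixed. Of 16 tested, 4 were higher and 2 lower, with a median of 0.16, against 6.47% higher and 8.24% lower of all genes. Wt1, a factor of coelomic lining, nephrogenic mesenchyme and gonad, had 17980, 18378 and 15442 in bare ducts and 39262, 31570 and 45192 with mesoderm, a rise of 1.15 ± 0.22 (adjusted p = 0.0042). The arrays labelled bare duct were thus bright for this gene of neighbouring mesoderm, and its mean in the ureteric buds was 977. Buds and bare ducts differ in tissue, in the use of trypsin and in the spike-in ratio, which cannot be told apart here. Aldh1a2, which makes retinoic acid in mesoderm and mesothelium, had 58758, 68374 and 60551 against 76744, 90606 and 78172, a difference of 0.39 ± 0.20 that was not called, with an interval of -0.05 to 0.82. The mesothelial factor Bnc1 stood at 0.35 ± 0.34. Its signals were 5443, 5984 and 4377 in bare ducts and its mean in the ureteric bud was 49.6.

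Other members of the list were Efemp1, a matrix protein, which rose by 1.89 ± 0.23, and mesothelin (Msln), which fell from 7022, 8777 and 7527 to 1335, 2461 and 1808, by 2.07 ± 0.23. Ezr, the microvillus protein ezrin, fell by 0.99 ± 0.12. The ureteric bud means were 1074 for Msln and 16069 for Ezr, against 7776 and 18464 in bare ducts. Which cells made them was not tested. Tcf21 and Wnt5a were the remaining risers. Wnt5a, at 1.20 ± 0.35, lost its call with the beta-actin covariate (adjusted p = 0.348), without any 1 of the 3 bare duct arrays (adjusted p = 0.051, 0.146 and 0.062) and without replicate 1 or 2 of the duct with mesoderm (adjusted p = 0.136 and 0.111).

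Blood cells were compared because vessels and blood lie in the same mesoderm. Of 19 red cell genes tested, Gypc was higher (1.02 ± 0.16) and Car2 lower (-0.87 ± 0.26), and the median was -0.05. The shares of all genes were 6.47% higher and 8.24% lower. The embryonic globin Hbz had 114581, 73606 and 70972 in bare ducts and 104330, 78043 and 65937 with mesoderm. These groups overlapped throughout, with a difference of -0.05 ± 0.37 and an interval of -0.85 to 0.75, and Hbe1 stood at -0.22 ± 0.35. The summed signal of the list was 258148 to 386380 in bare ducts and 247083 to 348831 with mesoderm. The Car2 call was lost without any 1 of 5 arrays (adjusted p = 0.0768 to 0.145), replicate 3 of the bare duct being the exception, where its probe sets were averaged (adjusted p = 0.295) and with the beta-actin covariate (adjusted p = 0.548).

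Of 17 macrophage and white cell genes, 3 rose and none fell, with a median of 0.95, against 6.47% of all genes higher. Summed signals of the list were 7833 to 10653 in bare ducts and 13559 to 17680 with mesoderm. Stab1, a scavenger receptor of macrophages and of some endothelium, had 823, 399 and 343 against 1923, 1487 and 1727, a rise of 1.72 ± 0.34. Coro1a, a leukocyte coronin, differed by 1.27 ± 0.33, and the mannose receptor Mrc1 by 2.42 ± 0.68. The defining receptor Csf1r did not differ by the test, at -0.19 ± 0.34. The call of Coro1a was lost without replicate 2 of the bare duct (adjusted p = 0.0569) and without replicate 2 or 3 of the duct with mesoderm (adjusted p = 0.0744 and 0.0712). Mrc1 lost its call without any 1 of 5 arrays (adjusted p = 0.0692 to 0.128), replicate 2 of the bare duct being the exception, and with the beta-actin covariate (adjusted p = 0.184). Only Stab1 remained of the 3 without replicate 3 of the duct with mesoderm.

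Genes of nephron progenitors and metanephric mesenchyme were mixed. Of 17 tested, 6 were higher and 2 lower, with a median of 0.58, against 6.47% higher and 8.24% lower of all genes. Itga8, the integrin by which nephrogenic mesenchyme meets the ureteric bud, went from 4281, 3706 and 3185 to 12046, 14161 and 12026, a rise of 1.77 ± 0.18 (adjusted p = 0.000111). A second probe set of it was not called. Wnt4, which starts tubule formation, rose from 3526, 3733 and 3489 to 8163, 12498 and 12394, by 1.58 ± 0.21. Crym, a thyroid hormone binding protein, rose by 1.37 ± 0.21. Cdh11, a mesenchymal cadherin, rose by 1.0 ± 0.18, a call lost where all its probe sets were averaged (adjusted p = 0.683). Meox1 rose by 2.88 ± 0.54 and lost its call with the beta-actin covariate (adjusted p = 0.25). Eya1, a regulator of the Gdnf gene, had overlapping groups at 0.10 ± 0.28.

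Of the progenitor genes that fell, Six4 differed by -0.67 ± 0.15 and Bmp7, which duct and mesenchyme both make, by -0.84 ± 0.21. Six4 lost its call without replicate 2 of either group (adjusted p = 0.0518 for bare duct and 0.0591 for duct with mesoderm) and with the beta-actin covariate (adjusted p = 0.276). Bmp7 lost its call without replicate 2 or 3 of the bare duct (adjusted p = 0.064 and 0.0719) or of the duct with mesoderm (adjusted p = 0.0533 and 0.077). Gdnf, the ligand of RET, lay under the filter, with 25.2, 81.5 and 162 in bare ducts and 68.1, 40.6 and 63.6 with mesoderm, and was not tested. Osr1, Six2 and Foxd1 had no probe set with 1 gene symbol and were not analysed here.

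Mesonephric tubules lie beside the duct. Of 17 tubule genes 3 rose and 5 fell, with a median of -0.26, against 6.47% higher and 8.24% lower of all genes. Pou3f3, a POU factor of kidney epithelia, fell from 12095, 12280 and 11223 to 2442, 3106 and 2672, by 2.10 ± 0.13 (adjusted p = 1.4e-05). Its mean in the ureteric bud was 28287, so its signal is not particular to tubules. The endocytic receptor Lrp2 fell by 1.94 ± 0.22, the homeobox gene Irx1 by 1.57 ± 0.23 and the notch ligand Jag1 by 0.99 ± 0.20, beside Pax8, which is also on the duct list. Dab2, an endocytic adaptor, rose by 1.12 ± 0.17, as did Synpo, of podocyte actin, by 0.90 ± 0.21, beside Wnt4. With the beta-actin covariate the calls of Irx1, Jag1, Dab2 and Synpo were lost (adjusted p = 0.0525, 0.198, 0.0538 and 0.0515). Synpo also lost its call without replicate 2 of either group (adjusted p = 0.0582 for bare duct and 0.0524 for duct with mesoderm) and where its 2 probe sets were averaged, which took the difference to 0.18 (adjusted p = 0.667).

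The receptor Ret and its co-receptor fell. Ret had 7387, 6340 and 8168 in bare ducts and 1336, 2014 and 2463 with mesoderm, a fall of 1.92 ± 0.20 on the log2 scale that 2 further probe sets shared. Gfra1, its co-receptor, fell from 8581, 9741 and 10408 to 2508, 4338 and 2920, by 1.58 ± 0.18, with a second probe set not called. The groups of both genes were apart. Among 14 genes of the bud tip list, these 2 fell and 3 rose, with a median of 0.04. The shares of all genes were 8.24% lower and 6.47% higher.

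Of the rest of that list, Etv5, Wnt11 and Moxd1 were called, all higher, and none was called lower. Etv4, an ETS factor induced by RET, had 1160, 1256 and 779 in bare ducts and 1659, 860 and 754 with mesoderm on its brighter probe set, a difference of -0.02 ± 0.27 with an interval of -0.61 to 0.57. Its dimmer probe set was called higher, at 1.0 ± 0.30 (adjusted p = 0.0483), so the 2 probe sets differ. Etv5 was higher on its brighter probe set, 765, 316 and 556 against 1270, 1222 and 933 (1.07 ± 0.27), and not called on the other, at -0.24 ± 0.33. Its call was lost without replicate 1 or 2 of the duct with mesoderm (adjusted p = 0.0544 and 0.0638), where its probe sets were averaged (adjusted p = 0.306) and with the beta-actin covariate (adjusted p = 0.116). The means of Etv4 and Etv5 in the ureteric bud were 15266 and 9010. The feedback inhibitors Spry1, at 0.26 ± 0.18, Spry2, at 0.06 ± 0.35, Spry4, at 0.32 ± 0.21, and Dusp6, at 0.70 ± 0.25, were not called, except Dusp6 without replicate 3 of the bare duct (adjusted p = 0.0147).

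Wnt11, made at bud tips under RET control, was below the pseudocount of 46 in all bare ducts, with 17.4, 25.3 and 33.0, and had 212, 510 and 614 with mesoderm. The difference of 2.68 ± 0.41 therefore depends on the pseudocount, and a second probe set showed none (-0.02 ± 0.52). The call was lost where probe sets were averaged (adjusted p = 0.0535). Over the alternatives the adjusted p ran from 0.000543 to 0.236. Moxd1, a monooxygenase-like gene, also rose, by 1.19 ± 0.23.

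**Figure D4:**
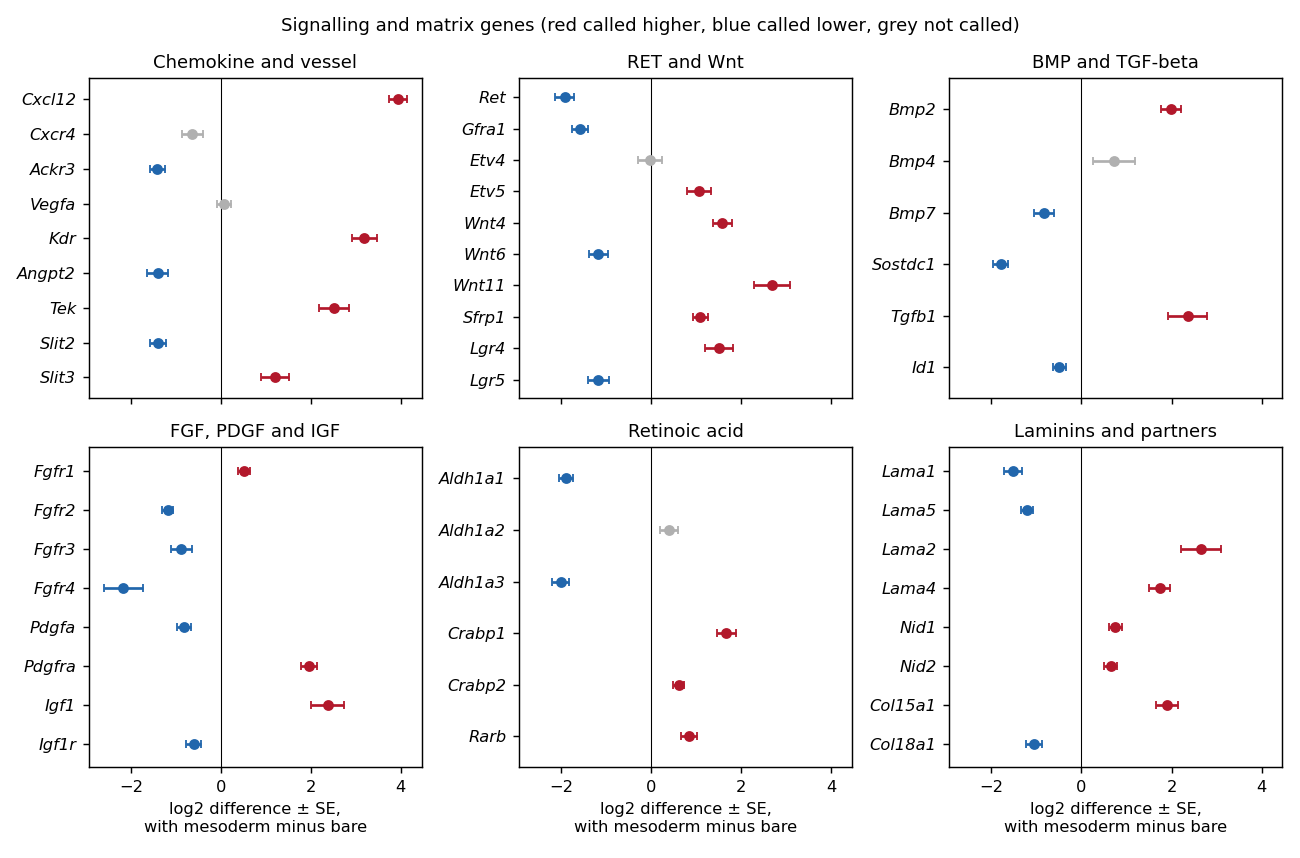
Log2 difference, duct with mesoderm minus bare duct, with its standard error for signalling and matrix genes in 6 panels, red where called higher, blue where called lower and grey where not called. Members of one pathway often lie on both sides of 0, such as Cxcl12 at 3.93 and Ackr3 at -1.41, Lama2 at 2.65 and Lama1 at -1.52.

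Of 27 Wnt ligands, receptors and modulators, 8 rose and 5 fell, with a median of 0.24. Shares of all genes were 6.47% higher and 8.24% lower. Besides Wnt4, Wnt5a and Wnt11, the risers were the secreted inhibitors Sfrp1 (1.09 ± 0.17), Frzb (1.88 ± 0.52) and Wif1 (1.05 ± 0.30), the receptor Fzd1 (0.84 ± 0.15) and Lgr4 (1.52 ± 0.31), which binds R-spondins. Sfrp1 had 18683, 19090 and 18708 in bare ducts and 31285, 45632 and 45197 with mesoderm. Those groups were apart, and 2 further probe sets rose. The genes that fell were the epithelial ligand Wnt6 (-1.17 ± 0.21), the R-spondin receptor Lgr5 (-1.17 ± 0.24), Fzd6 (-0.74 ± 0.17), Tcf7 (-0.54 ± 0.14) and Axin2 (-0.71 ± 0.21), a general target of Wnt signalling.

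Several of these calls were lost on leaving out single arrays. Axin2 lost its call without any 1 of 5 arrays (adjusted p = 0.0626 to 0.137), replicate 2 of the bare duct being the exception. Tcf7 lost it without replicate 1 or 2 of the bare duct (adjusted p = 0.0986 and 0.0661) or of the duct with mesoderm (adjusted p = 0.0822 and 0.0588), and Fzd6 without replicate 1 of the bare duct (adjusted p = 0.057). Frzb lost it without replicate 2 of the bare duct (adjusted p = 0.0533) and without replicate 1 or 2 of the duct with mesoderm (adjusted p = 0.0857 and 0.0936), and Wif1 without any 1 of 5 arrays (adjusted p = 0.0614 to 0.15), replicate 2 of the duct with mesoderm being the exception. With the beta-actin covariate 3 Wnt genes (Wnt4, Wnt11 and Sfrp1) rose and none fell. Among rises it ended the calls of Wnt5a, Frzb, Wif1, Fzd1 and Lgr4 (adjusted p = 0.348, 0.181, 0.198, 0.1 and 0.325). Among falls it ended those of Wnt6, Lgr5, Fzd6, Tcf7 and Axin2 (adjusted p = 0.0537, 0.109, 0.362, 0.585 and 0.0656).

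Of 29 BMP and activin genes, 2 were higher and 7 lower, with a median of 0.10, against 6.47% higher and 8.24% lower of all genes. Bmp2, a ligand of mesenchyme and vessels, rose from 1297, 1394 and 2034 to 5249, 7361 and 6382, by 1.99 ± 0.22 (adjusted p = 0.000169). Tgfb1 rose by 2.36 ± 0.43, a call lost with the beta-actin covariate (adjusted p = 0.0564). Sostdc1, a secreted inhibitor of BMP and Wnt ligands, fell from 20172, 20608 and 20626 to 4338, 7145 and 6511, by 1.79 ± 0.16. Acvr2b, an activin receptor, differed by -1.0 ± 0.21 and lost its call with that covariate (adjusted p = 0.0641). Bmp4, which the mesenchyme around the duct makes to hold back budding, had 1460, 1845 and 1104 against 5042, 1949 and 1403. Replicate 1 of the duct with mesoderm stood far above the rest, and the difference of 0.72 ± 0.47 was not called. Without replicate 3 of the duct with mesoderm 2 BMP and activin genes were higher and 4 lower, and with the beta-actin covariate 1 and 2.

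FGF, PDGF and IGF genes were called in both directions, 6 of 26 higher and 6 lower with a median of 0.07. Shares of all genes were 6.47% higher and 8.24% lower. Fgfr2, the FGF receptor of duct epithelium, fell from 36033, 39562 and 32303 to 15510, 15363 and 16395, by 1.18 ± 0.13. Its 2 dimmer probe sets were not called, and the call was lost where all were averaged (adjusted p = 0.193). Fgfr4 fell by 2.17 ± 0.43, lost with the beta-actin covariate (adjusted p = 0.169). Igf1, a growth factor of mesenchyme, rose from 1471, 700 and 1256 to 6756, 6631 and 4448, by 2.37 ± 0.37, while Igf2 overlapped at -0.16 ± 0.16. Fgf12 and Fgf13, FGF relatives that stay in the cell, rose by 2.36 ± 0.41 and 1.26 ± 0.14. Kitlg, the KIT ligand, from the list of gonad and germ cell genes, fell from 15838, 14360 and 18943 to 4886, 6400 and 5680, by 1.53 ± 0.17 on its brightest probe set, while 3 dimmer ones were not called and averaging all 4 ended the call (adjusted p = 0.379).

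Retinoic acid genes were called in both directions. Aldh1a3 and Aldh1a1, retinoic acid enzymes of the same family, fell, Aldh1a3 from 60319, 70493 and 56282 to 11364, 19441 and 16349 by 2.01 ± 0.18, and Aldh1a1 by 1.89 ± 0.16. The groups of Aldh1a3 were far apart, unlike the small difference of the mesodermal enzyme Aldh1a2 given above. Crabp1, a binding protein of retinoic acid, rose from 23251, 12810 and 23714 to 56441, 71269 and 57170, by 1.67 ± 0.21. Crabp2 rose by 0.61 ± 0.13 and the receptor Rarb by 0.84 ± 0.19, the call of Crabp2 being lost with the beta-actin covariate (adjusted p = 0.143). In all 3 of 15 genes rose and 2 fell, with a median of 0.26, against 6.47% higher and 8.24% lower of all genes.

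Basement membrane genes were called in both directions, 5 of 23 higher and 10 lower with a median of -0.53. The shares of all genes were 6.47% higher and 8.24% lower. Lama5, the laminin alpha chain of mature epithelia, fell from 29208, 29028 and 30577 to 11671, 14204 and 12727, by 1.20 ± 0.13 (adjusted p = 0.000165), and Lama1, the early epithelial chain, by 1.52 ± 0.20. Lama4, the chain of vessels, rose from 2299, 1799 and 1308 to 6032, 5903 and 5933, by 1.74 ± 0.24. Lama2, the chain of muscle and mesenchyme, rose from 267, 211 and 222 to 2482, 1914 and 1034, by 2.65 ± 0.45. No pair of groups among these 4 chains overlapped. The partner chains Lamc1 and Lamb1 fell by 0.93 ± 0.15 and 0.80 ± 0.15. The linkers Nid1 and Nid2 rose by 0.75 ± 0.15 and 0.65 ± 0.15, and of the related collagens Col15a1 rose by 1.90 ± 0.24 and Col18a1 fell by 1.06 ± 0.18.

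With the beta-actin covariate 3 basement membrane genes rose and 4 fell, and the calls of Lama2, Lamc1, Lamb1, Nid2 and Col18a1 were lost (adjusted p = 0.053, 0.0638, 0.0641, 0.176 and 0.0508). Averaging probe sets ended the calls of Lamc1 (adjusted p = 0.16) and Nid1 (adjusted p = 0.245), and Nid2 lost its call without replicate 2 of the duct with mesoderm (adjusted p = 0.0573). Type IV collagen Col4a1, at 0.29 ± 0.19, was not called.

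Hox genes, the transcription factors that mark position along the body axis, were called in both directions. Of 20 tested, 5 were higher and 10 lower, with a median of -0.69, against 6.47% higher and 8.24% lower of all genes. The 5 HoxA genes tested all had positive differences, with Hoxa5 (0.77 ± 0.18), Hoxa9 (0.84 ± 0.23) and Hoxa10 (1.0 ± 0.22) called. The 5 HoxB genes all had negative ones, with Hoxb2 (-1.03 ± 0.24), Hoxb3 (-1.02 ± 0.17), Hoxb4 (-1.12 ± 0.20) and Hoxb6 (-1.68 ± 0.16) called. Hoxb6 had 17534, 26385 and 18596 in bare ducts and 6527, 6795 and 5817 with mesoderm, and Hoxa10 had 5285, 4775 and 3141 against 10639, 6833 and 8801. Neither gene's groups overlapped.

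The HoxC and HoxD clusters held both directions. Hoxc9 rose from 3457, 2259 and 1631 to 7221, 5868 and 7835, by 1.55 ± 0.32, while Hoxc4 and Hoxc5 differed by -0.76 ± 0.19 and -0.63 ± 0.18. Hoxd8 fell from 16771, 17826 and 17837 to 6733, 8471 and 7908, by 1.18 ± 0.13, beside Hoxd1 (-1.50 ± 0.26), Hoxd3 (-1.21 ± 0.18) and Hoxd4 (-1.06 ± 0.18). Hoxd9, next to it in the cluster, had 5655, 5044 and 4778 against 5006, 5003 and 4609, with overlapping groups at -0.08 ± 0.14. Hoxd10 was higher by 0.73 ± 0.21. Whether the clusters differ from each other was not tested.

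The Hox counts moved with the array measures. Without replicate 3 of the duct with mesoderm 3 Hox genes were higher and 8 lower, and with the beta-actin covariate 2 and 3. The covariate ended the calls of Hoxa5, Hoxa9 and Hoxd10 among the rises (adjusted p = 0.162, 0.0827 and 0.0615). Among the falls it ended those of Hoxb2, Hoxb4, Hoxc4, Hoxc5, Hoxd1, Hoxd3 and Hoxd4 (adjusted p = 0.384, 0.0561, 0.287, 0.339, 0.153, 0.0821 and 0.0548), and averaging probe sets also ended that of Hoxc4 (adjusted p = 0.164). Hoxa9 lost its call without replicate 2 or 3 of the bare duct (adjusted p = 0.0626 and 0.0866) and without replicate 1 or 3 of the duct with mesoderm (adjusted p = 0.0948 and 0.0833). Hoxd10 lost it without any 1 of 5 arrays (adjusted p = 0.0523 to 0.143), replicate 2 of the duct with mesoderm being the exception. Hoxb2 lost it without replicate 1 or 2 of the bare duct (adjusted p = 0.0538 and 0.0718) or of the duct with mesoderm (adjusted p = 0.0516 and 0.0649), Hoxc4 without replicate 2 of the bare duct (adjusted p = 0.0553) or replicate 2 or 3 of the duct with mesoderm (adjusted p = 0.0626 and 0.0525), and Hoxc5 without any 1 of 5 arrays (adjusted p = 0.0741 to 0.138), replicate 3 of the bare duct being the exception. Hoxb6, Hoxd8, Hoxb3, Hoxc9 and Hoxa10 were called with every single array left out and with the covariate (adjusted p = 0.0481 for Hoxa10).

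**Figure D5:**
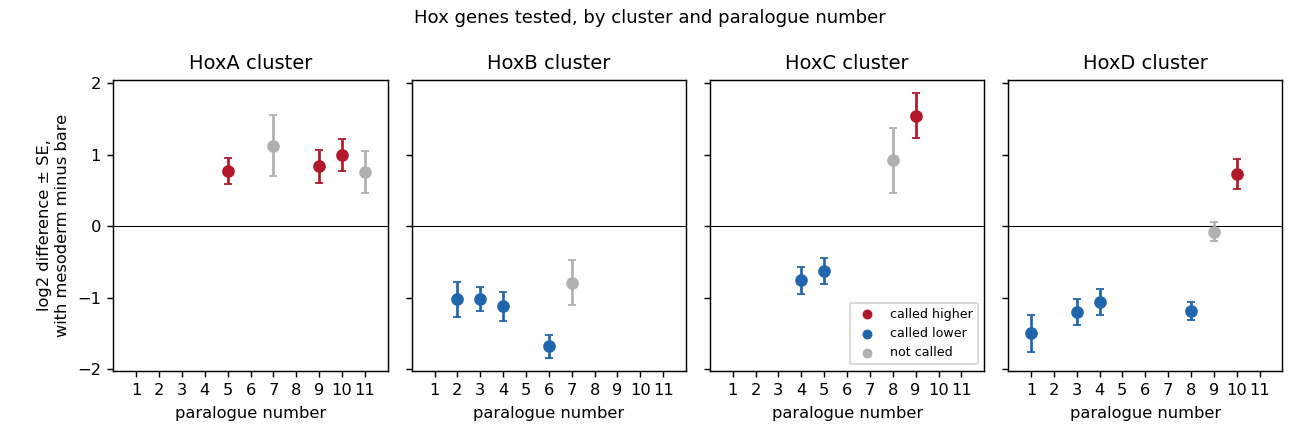
Log2 difference, duct with mesoderm minus bare duct, with its standard error for the 20 Hox genes tested, by cluster and paralogue number, red where called higher, blue where called lower and grey where not called. HoxA genes lie above 0 and HoxB genes below, and in HoxC and HoxD the lower numbers lie below 0 and Hoxc9 and Hoxd10 above.

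Axon guidance genes, many of which also act on vessels and ducts, were called in both directions, 5 of 30 higher and 3 lower with a median of 0.18, against 6.47% higher and 8.24% lower of all genes. Plxnd1, the semaphorin receptor of endothelium, rose from 881, 623 and 742 to 3428, 4648 and 2912, by 2.21 ± 0.29, and Sema3c, a semaphorin of epithelia, fell from 7296, 10000 and 8875 to 3642, 4072 and 5090, by 1.03 ± 0.16. Among Eph receptors Epha4 rose by 0.87 ± 0.19, and Epha3 and the ligand Efnb1 were higher by 1.39 ± 0.37 and 0.95 ± 0.23, beside Slit3 above. Slit2 and Plxnb1 (-0.52 ± 0.15) were the other falls. The calls of Epha3, Efnb1 and Plxnb1 were lost with the beta-actin covariate (adjusted p = 0.486, 0.294 and 0.619), and averaging probe sets ended those of Efnb1 and Plxnb1 (adjusted p = 0.0519 and 0.481). They were also lost on leaving out single arrays, which were replicates 1 and 2 of the bare duct and replicates 1 and 3 of the duct with mesoderm for Epha3 (adjusted p = 0.0602 to 0.0967), replicate 2 of the bare duct and replicate 1 of the duct with mesoderm for Efnb1 (adjusted p = 0.066 and 0.0554), and every array but replicate 3 of the bare duct for Plxnb1 (adjusted p = 0.0866 to 0.129).

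Genes of neurons and neural crest gave 3 rises and 2 falls among 21 tested. The median of the list was -0.13, and of all genes 6.47% were higher and 8.24% lower. Gfra3, a GDNF family receptor of sympathetic neurons, had 740, 689 and 831 against 2319, 2441 and 2444, a rise of 1.62 ± 0.33, lost with the beta-actin covariate (adjusted p = 0.222). Dcx, a microtubule protein of young neurons, fell from 5442, 7613 and 5015 to 1943, 2245 and 3277, by 1.27 ± 0.21 (adjusted p = 0.1 with that covariate), and L1cam fell as given above. Stmn2 and Ngfr were higher by 1.57 ± 0.42 and 1.68 ± 0.48. Stmn2 lost its call without replicate 2 or 3 of either group (adjusted p = 0.0553 to 0.103), and Ngfr without replicate 1 of the bare duct (adjusted p = 0.0911), without any array of the duct with mesoderm (adjusted p = 0.074 to 0.13) and with the covariate (adjusted p = 0.606).

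Lists for tissues farther away had few tested genes, and 14.7% of all genes were called in either direction. Of 8 genes of gonad, adrenal and germ cells, Kitlg, Cited2 (-0.76 ± 0.13) and Emx2 fell and none rose, and the covariate ended the call of Cited2 (adjusted p = 0.0983). Kitlg, Cited2 and Emx2 were also bright in the ureteric bud, with means of 29420, 16951 and 20623, so they are not particular to those tissues. Of 6 somite and skeletal muscle genes Meox1 rose and Tnnt2, a troponin, fell from 4911, 3882 and 1579 to 632, 594 and 1134, by 1.98 ± 0.37, both lost with the covariate (adjusted p = 0.25 and 0.233). Of 6 liver and gut genes only Sox17 was called, a factor of endoderm and of endothelium that rose by 3.52 ± 0.54. Albumin (Alb) overlapped at -0.84 ± 0.59.

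Of 34 proliferation genes, 7 were higher and none lower, with a median of 0.29, against 6.47% of all genes higher. Aurkb, a mitotic kinase, had 4152, 4344 and 4759 in bare ducts and 8967, 7953 and 8540 with mesoderm, a rise of 0.94 ± 0.14 (adjusted p = 0.00124), and Gmnn, which holds back DNA licensing, rose by 0.62 ± 0.12. Other mitosis genes also rose, Kif20a by 0.65 ± 0.15, Ttk by 0.60 ± 0.16, Ccnb1 by 0.49 ± 0.14 and Ccnb2 by 0.43 ± 0.13. Each of these calls was lost on leaving out some single array. Cdk1, at 0.38 ± 0.12, was not called, though its groups did not overlap. Mki67, at -0.06 ± 0.15, and Top2a, at 0.14 ± 0.12, had overlapping groups. The count was 4 without replicate 3 of the duct with mesoderm and 2 with the beta-actin covariate, which ended the calls of Aurkb and Gmnn (adjusted p = 0.0957 and 0.127). It also ended those of Kif20a, Ccnb1 and Ccnb2 (adjusted p = 0.258, 0.469 and 0.188). Averaging probe sets also ended that of Gmnn (adjusted p = 0.224). The largest rise of the list was that of Tyms, which makes thymidylate for DNA, at 1.01 ± 0.24. Tyms lost its call without replicate 2 of the bare duct (adjusted p = 0.0586), without replicate 1 of the duct with mesoderm (adjusted p = 0.0523) and with the covariate (adjusted p = 0.176).

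Of 31 glycolysis and hypoxia genes, 2 were higher and 5 lower, with a median of -0.19, against 6.47% higher and 8.24% lower of all genes. With the beta-actin covariate 1 was higher and 2 lower. Pfkfb3, a regulator of glycolysis, fell from 7324, 6041 and 6065 to 2213, 2552 and 2987, by 1.32 ± 0.16, and Ndrg1, a stress and differentiation gene, by 1.35 ± 0.20. Each had a second probe set that was not called, and averaging ended the call of Pfkfb3 (adjusted p = 0.0593). Ddit4, an inhibitor of mTOR signalling, rose from 1732, 1575 and 2257 to 4927, 5703 and 5692, by 1.54 ± 0.18. Of 32 immediate early and stress genes, which can respond to dissection, 2 were higher and 2 lower with a median of -0.03. Ccn2, a matrix protein induced by tension, rose by 1.28 ± 0.21. Egr1 had 56139, 46765 and 68594 against 31855, 29949 and 40282, a fall of 0.74 ± 0.15 on the log2 scale, lost with the beta-actin covariate (adjusted p = 0.1). Gadd45g and Myc, the remaining calls, differed by 1.33 ± 0.35 and -0.65 ± 0.17, and both were lost on leaving out single arrays. These were replicates 2 and 3 of the bare duct and 1 and 2 of the duct with mesoderm for Gadd45g (adjusted p = 0.0634 to 0.0752), and replicate 3 of the bare duct and replicates 1 and 3 of the duct with mesoderm for Myc (adjusted p = 0.0751 to 0.0793). The covariate ended both calls (adjusted p = 0.105 for Gadd45g and 0.0945 for Myc). Fos overlapped at 0.47 ± 0.39.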

How the data were processed

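Per the labels' protocols, biotin-labelled target from total RNA of each tissue pool was put on 1 single-colour Affymetrix array. The deposited table holds 1 intensity per probe set and array, made with GCOS, the Affymetrix operating software, per the submitters' processing notes. The GCOS version and summary algorithm, not given in the sources used here, are unknown. All 9 arrays share a trimmed mean of 2501 intensity units with 2% of probe sets left out at each end. No detection calls were used, so weak signals cannot be told from background, and 3 arrays a group limit precision.

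Of 31099 probe sets, 57 were controls, 20826 had 1 gene symbol in the platform table, 436 several and 9780 none, and 20758 were matched by Entrez ID to RefSeq's GRCr8 gene table. A gene was read from its probe set of highest mean log2 value. Tests used log2(intensity + 46), with the 10th percentile of all values as pseudocount. A probe set entered if it exceeded the 40th percentile on 3 or more of the 9 arrays, and 20330 did. R 4.3.3 and limma 3.58.1 fitted all 9 arrays with group as the only term, a mean-variance trend and 6 residual degrees of freedom. All adjusted p-values are limma's with Benjamini-Hochberg adjustment.

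The comparison, the 26 gene lists and the naming rule were chosen with earlier results of these data known, so counts over lists are descriptions. Named genes were the 20 largest called rises and the 20 largest called falls with non-overlapping groups, up to 8 members of each list by smallest p, all called members where a list had 5 or fewer, and 22 fixed genes, of which Gdnf and Hoxd11 were below the filter. Genes named beside them, such as Dsp, Epcam, Krt18, Krt19, Zeb1, Meis1, Lyve1, Angpt2, Vegfa and list members that were not called, were chosen after their values were seen. On 20330 simulated probe sets with independent normal noise, 100 were changed by 1 and 100 by 2 (log2). The procedure called 44% of changes of 1 and 89% of changes of 2, and 4.32% of 139 calls were false. In the data 1142 probe sets were called higher and 1436 lower, and array quality differed, so these rates need not hold there. Alternatives were other normalizations, pseudocounts, filters and variance models, array weights, a replicate block, the spike-in and beta-actin measures, averaged probe sets and leaving out each array.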

Additional observations from a re-analysis of the deposited data

How the results depend on the processing

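Counts of genes higher and lower in the duct with mesoderm were 699 and 890. Leaving out 1 array at a time gave 468 to 731 higher and 649 to 856 lower. Within the 5 arrays of low spike-in ratio, which leaves fewer arrays, the counts were 352 and 499, and with the beta-actin covariate 264 and 293. The other settings stayed within 1.5 times the reported counts. Replicate numbers did not pair the arrays, as the deviations of same-numbered arrays correlated by 0.06, -0.05 and -0.28, and a replicate block gave 575 higher and 770 lower. Of 237 named genes tested, 190 were called, 100 of them in all 21 alternatives that gave a value, and no called gene among them changed sign. The beta-actin covariate ended 75 of those calls, the low spike-in set 37. Quantile normalization gave 803 and 917, and median centring 702 and 761. Dim genes near the pseudocount, such as Wnt11 in bare ducts, have the least certain size of change.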
